A study of Mus musculus with 6 samples.

Results

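Endothelial cells of mouse skin were picked out of single-cell transcriptomes by the genes they express. A cell was chosen by having UMIs of at least 3 of 7 endothelial genes (Pecam1, Cldn5, Plvap, Cdh5, Ptprb, Vwf and Mmrn1), no UMI of the leukocyte gene Ptprc, less than 40 UMIs per 10000 of Col1a1, Col1a2, Col3a1 and Dcn together, and less than 20 of Krt5 and Krt14 together. A UMI marks 1 captured RNA molecule. The rule found 78 of 21178 cells, or 0.368%. They came from 6 mice of the NINJA strain, 6 to 12 weeks old, whose skin had all been treated with 4-OH-Tam in the sampled area. Both NO_AG mice had the antigen off, both AG mice had it on, and both AG_CPI mice had it on and received CPI, which the labels do not spell out. The mice had been checked for visible skin disease and for P14 CD8 T cells in the skin before sequencing. The labels name no cell type or promoter in which the antigen was expressed, and they give no sex or batch. Nothing says whether mice shared a litter or day, so every p-value speaks for these mice only.

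Endothelium lines the vessels of the dermis. Blood endothelium regulates exchange with tissue and, mostly in venules, holds the selectins and adhesion molecules that let leukocytes leave the blood. Lymphatic endothelium drains fluid and cells towards lymph nodes and makes Ccl21a, a chemokine that guides dendritic cells and T cells. Endothelium displays peptides on class I molecules, which CD8 T cells read. Interferon-gamma made by T cells is known to raise class I and to switch on class II, the molecules that CD4 T cells read.

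Endothelial genes outside the rule were detected too, among them the VEGF receptor Kdr in 49 of the 78 cells and the angiopoietin receptor Tek in 30. Each of 20 genes on a general endothelial list had UMIs in these cells. That list includes Cdh5, Cldn5 and Ptprb of the rule. All 20 also had UMIs in the far more numerous keratinocytes of these libraries, so the count alone does not mark endothelium. Of the genes that chose the cells, Pecam1 was detected in 73 cells, Plvap in 66, Cdh5 in 57, Ptprb in 56, Cldn5 in 55, Mmrn1 in 47 and Vwf in 38. Of genes typical of other cells, 9 of 14 mural genes (Rgs5, Pdgfrb and Myh11 among them), 13 of 16 myeloid genes (among them Lyz2, Csf1r and Tyrobp) and 7 of 14 fibroblast genes had 0 UMIs in all 78 cells. Those fibroblast genes include Pdgfra, and also Dcn and Col3a1, whose low level the rule had required. The 14 fibroblast genes together were at 6.18 to 8.87 UMIs per 10000 for NO_AG mice, 12.7 to 13.8 for AG and 9.56 to 19.2 for AG_CPI. Most of that was Sparc, a matrix protein that endothelium also makes, and without Sparc and Gsn the other 12 genes summed to 0.555 to 2.83. A count of 0 over all of them allows a level of up to 0.10 UMIs per 10000, counting error only.

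Most cells lay well inside the limits of the rule. Of the 78, 7 cells had 3 of the 7 genes, 15 had 4, 30 had 5, 21 had 6 and 5 had 7. Just outside, 9 cells met the other conditions with 2 genes. Another 34 cells had at least 3 genes and failed a limit, 22 of them on the keratins alone (the lowest at 20.2 UMIs per 10000) and 4 on Ptprc alone. Of those 34 cells, 25 came from AG 2 and 8 from NO_AG 2. The highest keratin sum inside the rule was 12.8 UMIs per 10000, and 64 cells had none.

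The libraries gave the rule uneven numbers and depth. The 78 cells held 1556 to 13100 UMIs each, and 15973 (AG_CPI 2) to 128224 (NO_AG 1) per mouse in sum. Median UMIs of the endothelial cells were 2811.5 and 3147.5 for NO_AG mice, 3550 and 2561 for AG and 6613 and 3836.5 for AG_CPI. The library of AG_CPI 1 stood apart in another respect. The Y-linked gene Ddx3y had 3 UMIs in its endothelial cells and Xist had 0, while the other 5 mice had 4 to 36 UMIs of Xist and 0 of Ddx3y. Sex and treatment cannot be told apart in that mouse, so the calls for AG_CPI are also given without it. Those fits leave 1 AG_CPI mouse, with 4 endothelial cells, which is assumed to vary like the other groups, so their spread comes from the NO_AG and AG mice alone. Of 20921 cell barcodes, 255 occurred in more than 1 library, including those of 3 endothelial cells, and no barcode was shared by a pair of endothelial cells.

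The 78 cells fell into lymphatic and blood cells (heat map of single cells). Mmrn1, a matrix protein of lymphatic endothelium, was detected in 47 cells and not in 31, here called Mmrn1+ and Mmrn1- cells. At least 1 of 6 further lymphatic genes (Prox1, Lyve1, Flt4, Pdpn, Reln and Ccl21a) was detected in 45 of the 47 Mmrn1+ cells and in 2 of the 31 Mmrn1- cells. Flt4, the VEGF-C receptor, had 112 UMIs in 37 Mmrn1+ cells and 0 in Mmrn1- cells. Ccl21a had 984 UMIs in 31 Mmrn1+ cells and 0 in the others. Some blood vessel genes showed the reverse. Flt1 was found in 18, Nrp1 in 17 and Cd34 in 16 of the Mmrn1- cells, and none of the 3 had a UMI in the Mmrn1+ cells. Of the 13 blood vessel genes listed and found in the data, however, 9 had UMIs in Mmrn1+ cells, where they summed to 14.4 to 34.2 UMIs per 10000, against 28.9 to 155.5 in Mmrn1- cells. Since the clearest of these genes define the kinds, the values are a description without a test.

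**Figure D1:**
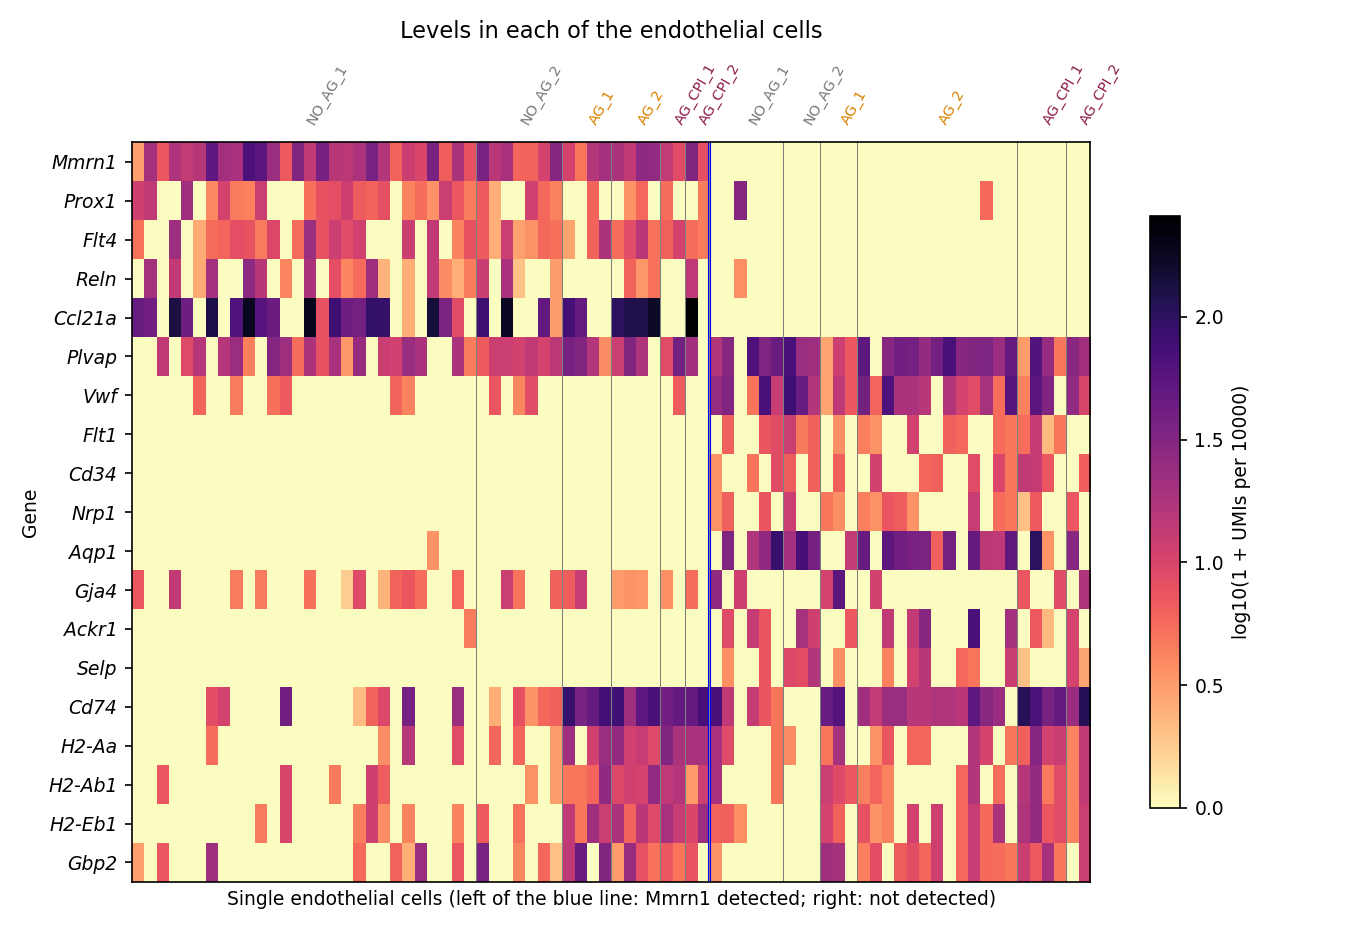
Each column is 1 of the 78 endothelial cells and each row a gene, and the colour gives log10 of 1 plus UMIs per 10000. Cells left of the blue line have Mmrn1 and those right of it do not, and grey lines part the 6 mice. Flt4 and Ccl21a fill only the left side and Flt1, Cd34 and Nrp1 only the right, while Cd74 and the H2 genes are darker in the AG and AG_CPI columns on both sides.

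Other genes parted the kinds in each of the 6 mice. Lcn2, which encodes the iron-siderophore carrier lipocalin 2, was detected in 44 of 47 Mmrn1+ cells and 3 of 31 Mmrn1- cells. Its mean level over mice was 14.4 against 0.325 UMIs per 10000. Fgl2 was at 10.0 against 1.32, Fxyd6 at 9.34 against 1.53, and Thy1, also a T cell gene, at 5.33 against 0.388. On the other side, Mgp, an inhibitor of calcification, was at 36.1 UMIs per 10000 in Mmrn1- and 0.121 in Mmrn1+ cells. Aqp1, a water channel, was at 23.6 against 0.0152, and Fabp4, a fatty acid carrier of small vessels, at 75.3 against 4.59. Emcn, often used as a blood vessel gene, did not part the kinds, with 21 of 31 Mmrn1- and 37 of 47 Mmrn1+ cells positive.

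Most Mmrn1- cells carried venular genes. Of the 31, 17 had Ackr1, Selp or Sele without an arterial gene (Gja4, Gja5, Hey1 or Sema3g), 5 had arterial genes only, 3 had both and 6 had neither. Ackr1 is the chemokine-binding receptor of venules, and Selp is P-selectin. Ackr1 was detected in 14 Mmrn1- cells and 1 Mmrn1+ cell, and Selp in 15 and 0. Gja4, on the arterial list, was also found in 22 of the 47 Mmrn1+ cells.

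A split by the sums of Mmrn1 and Ccl21a against Plvap and Vwf gave 36 lymphatic, 40 blood and 2 undecided cells. It placed 10 Mmrn1+ cells with the blood cells. Of these 10, 8 carried at least 1 of the 6 other lymphatic genes and 5 at least 2, against 45 and 39 of all 47 Mmrn1+ cells, and 2 carried none. Detection of Mmrn1 was used to weigh the kinds in the comparisons below, a choice made after these values had been seen.

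Endothelial cells made up under 1% of every library, and the groups overlapped. The shares were 0.684% and 0.244% of all cells for NO_AG mice, 0.200% and 0.364% for AG and 0.346% and 0.181% for AG_CPI. The mice of 1 group differed as much as the groups did. The exact (Clopper-Pearson) 95% interval of NO_AG 1, 0.474% to 0.954%, overlapped those of AG 2 and AG_CPI 1. It lay above those of NO_AG 2 (up to 0.449%), AG 1 (up to 0.411%) and AG_CPI 2 (up to 0.463%). The mean of AG was lower than that of NO_AG by 0.182 percentage points, with an exact two-sided permutation p of 0.667. AG_CPI lay 0.0188 points below AG (p = 0.667) and 0.201 below NO_AG (p = 0.667), by the same exact permutation test. With 2 mice against 2, this test cannot give a p under 0.33. The direction turned with the denominator. Per 100 fibroblasts the numbers were 103 and 45.5 for NO_AG mice, 43.8 and 170.0 for AG and 600.0 and 133 for AG_CPI, where AG_CPI 1 had a single fibroblast. Dissociation can change these shares, so a lower share cannot be told apart from a lower yield of cells.

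Both NO_AG mice had a larger share of Mmrn1+ cells than the other 4 mice, while the split by sums left the groups overlapping. Mmrn1+ cells were 28 of 34 and 7 of 10 endothelial cells for NO_AG mice, 4 of 7 and 4 of 17 for AG and 2 of 6 and 2 of 4 for AG_CPI. As percentages these are 82.4 and 70.0, 57.1 and 23.5, and 33.3 and 50. Both NO_AG mice lay above the other 4, which is given as a description with no test, since Mmrn1 was one of the 7 genes that chose the cells. By the sums, the lymphatic share was 64.7% and 40% for NO_AG mice, 42.9% and 23.5% for AG and 16.7% and 50% for AG_CPI, and the groups overlapped. When every cell was thinned to 1500 UMIs, Mmrn1 was left in 24 of 34, 4 of 10, 4 of 7, 4 of 17, 2 of 6 and 2 of 4 cells in the same order of mice, so that NO_AG 2 no longer lay above AG 1 or AG_CPI 2.

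**Figure D2:**
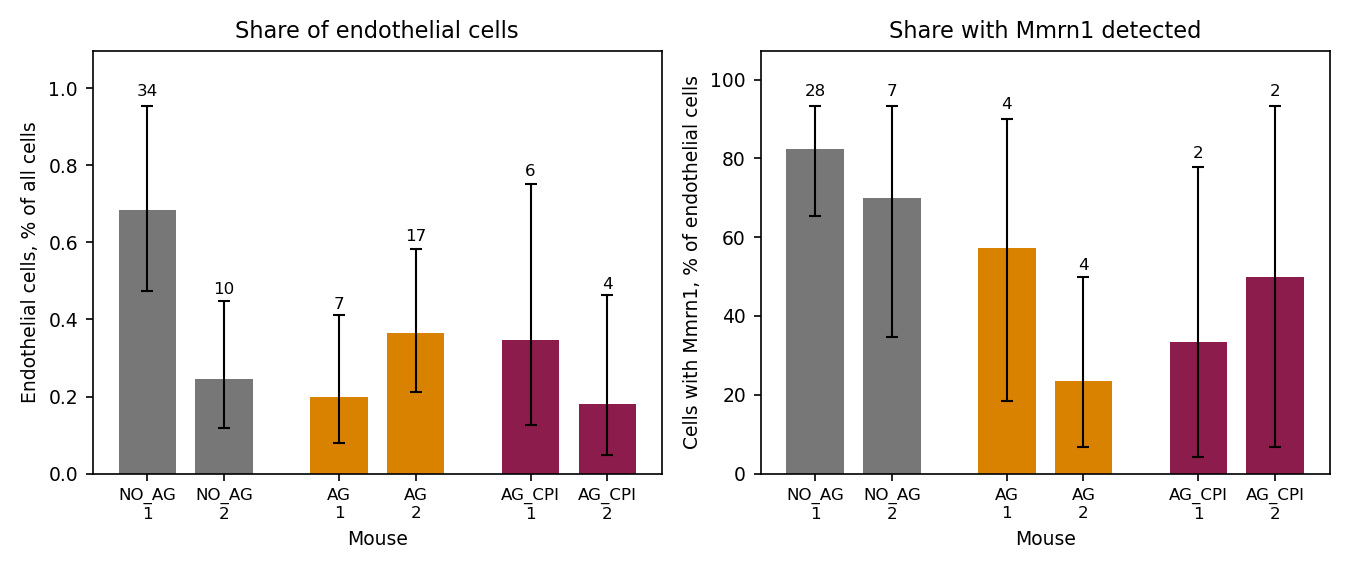
Left, endothelial cells as a percent of all cells in each mouse, and right, cells with Mmrn1 as a percent of endothelial cells. Bars give the share and error bars its exact 95% binomial interval. The number above each bar counts endothelial cells on the left and Mmrn1+ cells on the right. The left bars of the 3 groups overlap, and on the right both NO_AG bars (82.4% and 70.0%) stand above the rest within wide intervals.

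Gene levels were compared between the groups with the 2 kinds weighted equally, because their mix differed between mice. For each mouse, UMIs per 10000 were averaged over the Mmrn1+ and over the Mmrn1- cells, brought to log2 with 0.5 added, and the mean of both was tested with limma over the 6 mice. A gene was called at a Benjamini-Hochberg adjusted p under 0.05 over 2359 genes with at least 5 UMIs in at least 2 mice. AG against NO_AG gave 4 called genes (0.170% of those tested), all higher in AG. AG_CPI against AG gave 1 (0.0424%), which was lower. AG_CPI against NO_AG gave 8 (0.339%), 5 higher and 3 lower. Each pair of comparisons shares the mice of 1 group. The limma fit draws the variance of each gene towards a trend over all genes tested. Its small p-values thus rest in large part on that shared variance, not on the spread of 1 gene between the mice. No gene of the rule was called.

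A single kind of cell rested on as few as 2 cells in a mouse, which limits all of these values. On data simulated for AG against NO_AG, 50.6% of genes changed 8-fold and 18.2% of those changed 4-fold were recovered. The simulation drew 1 count per gene, kind and mouse, with no variation between single cells, so these rates need not hold for the real cells. Without the filter on low values, 10467 genes entered and limma called 0 in each comparison, with 311, 286 and 374 genes at an unadjusted p under 0.05 in the order above. Leaving out AG 1 left 0 calls by limma in AG against NO_AG (31 genes at an unadjusted p under 0.05; Cd74 at 3.18, adjusted p = 0.350) and 0 in AG_CPI against AG (61 genes).

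Class II antigen presentation genes made up 3 of the 4 genes called in AG against NO_AG. Cd74, the invariant chain that escorts class II molecules, and H2-Eb1 and H2-Ab1, class II beta chains, rose. H2-Aa, the alpha chain that pairs with H2-Ab1, was also higher but did not pass. Cd74 in Mmrn1+ cells was at 4.63 and 3.04 UMIs per 10000 for NO_AG mice, 61.0 and 54.2 for AG and 42.4 and 58.7 for AG_CPI. In Mmrn1- cells it was at 17.5 and 0, 34.5 and 19.5, and 63.7 and 64.9. Every AG and AG_CPI mouse lay above both NO_AG mice in both kinds, though AG 2 (19.5) came close to NO_AG 1 (17.5) among Mmrn1- cells. The difference of AG from NO_AG was 3.41 on the log2 scale (SE 0.43; limma, adjusted p = 2.76e-07). Mmrn1- cells with the arterial gene Gja4 numbered 2 of 6 and 0 of 3 in the NO_AG mice, 2 of 3 and 1 of 13 in AG, 2 of 4 and 1 of 2 in AG_CPI, and 7 of these 8 cells had Cd74. Among Mmrn1- cells without Gja4, Cd74 was at 8.89 and 0 for NO_AG mice, 0 (1 cell) and 20.1 for AG and 50.7 and 22.1 (1 cell) for AG_CPI, and AG and NO_AG overlapped. This split was chosen after the values were seen, and the part of the mix of arterial cells in the results was not tested.

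H2-Eb1 in Mmrn1+ cells was at 1.27 and 1.40 UMIs per 10000 for NO_AG mice, 12.2 and 11.2 for AG and 14.97 and 15.07 for AG_CPI. Among Mmrn1- cells the levels were 2.19 and 0, 4.90 and 5.51, and 13.5 and 7.06. The 3 groups stood in the same order in both kinds, with no overlap. Among Mmrn1- cells without Gja4, H2-Eb1 was at 1.33 and 0 for NO_AG mice, 0 (1 cell) and 5.77 for AG and 14.99 and 3.16 (1 cell) for AG_CPI, and there AG overlapped both other groups. AG exceeded NO_AG by 2.48 on the log2 scale (SE 0.51; limma, adjusted p = 0.00993). The call was lost under 8 of 21 alternatives, among them leaving out NO_AG 2 (1.89; limma, adjusted p = 0.771), AG 1 (0.999) or AG 2 (0.174). H2-Ab1 in Mmrn1+ cells was at 1.25 and 0.669 UMIs per 10000 for NO_AG mice, 9.54 and 13.3 for AG and 14.3 and 6.43 for AG_CPI. Mmrn1- cells had 3.67 and 0, 8.44 and 2.79, and 12.6 and 7.97, so AG 2 fell between the NO_AG mice in this kind. The difference of AG from NO_AG was 2.43 (SE 0.55; limma, adjusted p = 0.0282). That call was lost under 10 of 21, among them leaving out NO_AG 2 (1.52; limma, adjusted p = 0.999), AG 1 (0.999) or AG 2 (0.149).

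H2-Aa in Mmrn1+ cells was at 1.05 and 1.70 UMIs per 10000 for NO_AG mice, 13.4 and 13.5 for AG and 24.0 and 17.7 for AG_CPI. In Mmrn1- cells it was at 5.003 and 0.940, 7.43 and 3.64, and 14.2 and 7.97. The groups were well apart in Mmrn1+ cells, and AG overlapped NO_AG in Mmrn1- cells. Over both kinds the AG value was 1.92 higher on the log2 scale (SE 0.48; limma, adjusted p = 0.0880), which missed the threshold. It passed when AG_CPI 1 was left out of the fit (adjusted p = 0.0124).

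Of the 11 genes listed for class II presentation, 6 passed the filter and 3 of these rose in AG, beside 0.170% of all genes called. For 6 of 6 both AG mice lay above both NO_AG mice, against 13.5% of all genes tested, and their median log2 difference was 2.18 against -0.12 over all genes. The peptide loaders H2-DMa and H2-DMb1 differed by 0.49 and 0.85 on the log2 scale and were not called. Ciita, the master switch of class II, had 8 UMIs in 7 cells, too few to test. Cd80, Cd86 and the protease gene Ctss, all typical of professional antigen-presenting cells, had 0 UMIs in the 78 cells.

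These genes were also higher in AG_CPI. Against NO_AG, Cd74 was 4.00 higher on the log2 scale (limma, adjusted p = 1.72e-09), H2-Eb1 3.12 (adjusted p = 0.000124), H2-Ab1 2.85 (adjusted p = 0.00135) and H2-Aa 2.74 (adjusted p = 0.000263). These are 4 of the 6 tested class II genes, beside 0.339% of all genes called. The median of the 6 tested class II genes was 2.80, against -0.16 over all genes, and both AG_CPI mice lay above both NO_AG mice for 5 of them, against 11.5% of all genes. Without AG_CPI 1 all 4 genes remained called. H2-Ab1 lost its call under 8 of 21 alternatives, among them leaving out NO_AG 2 (1.94; limma, adjusted p = 0.353) or AG 1 (0.0528). Of AG_CPI against AG, none of the 6 was called, beside 0.0424% of all genes, with a median of 0.54 against -0.04 over all genes. Both AG_CPI mice lay above both AG mice for 4 of the 6 (13.8% of all genes) and below for H2-DMa (16.0% of all genes).

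**Figure D3:**
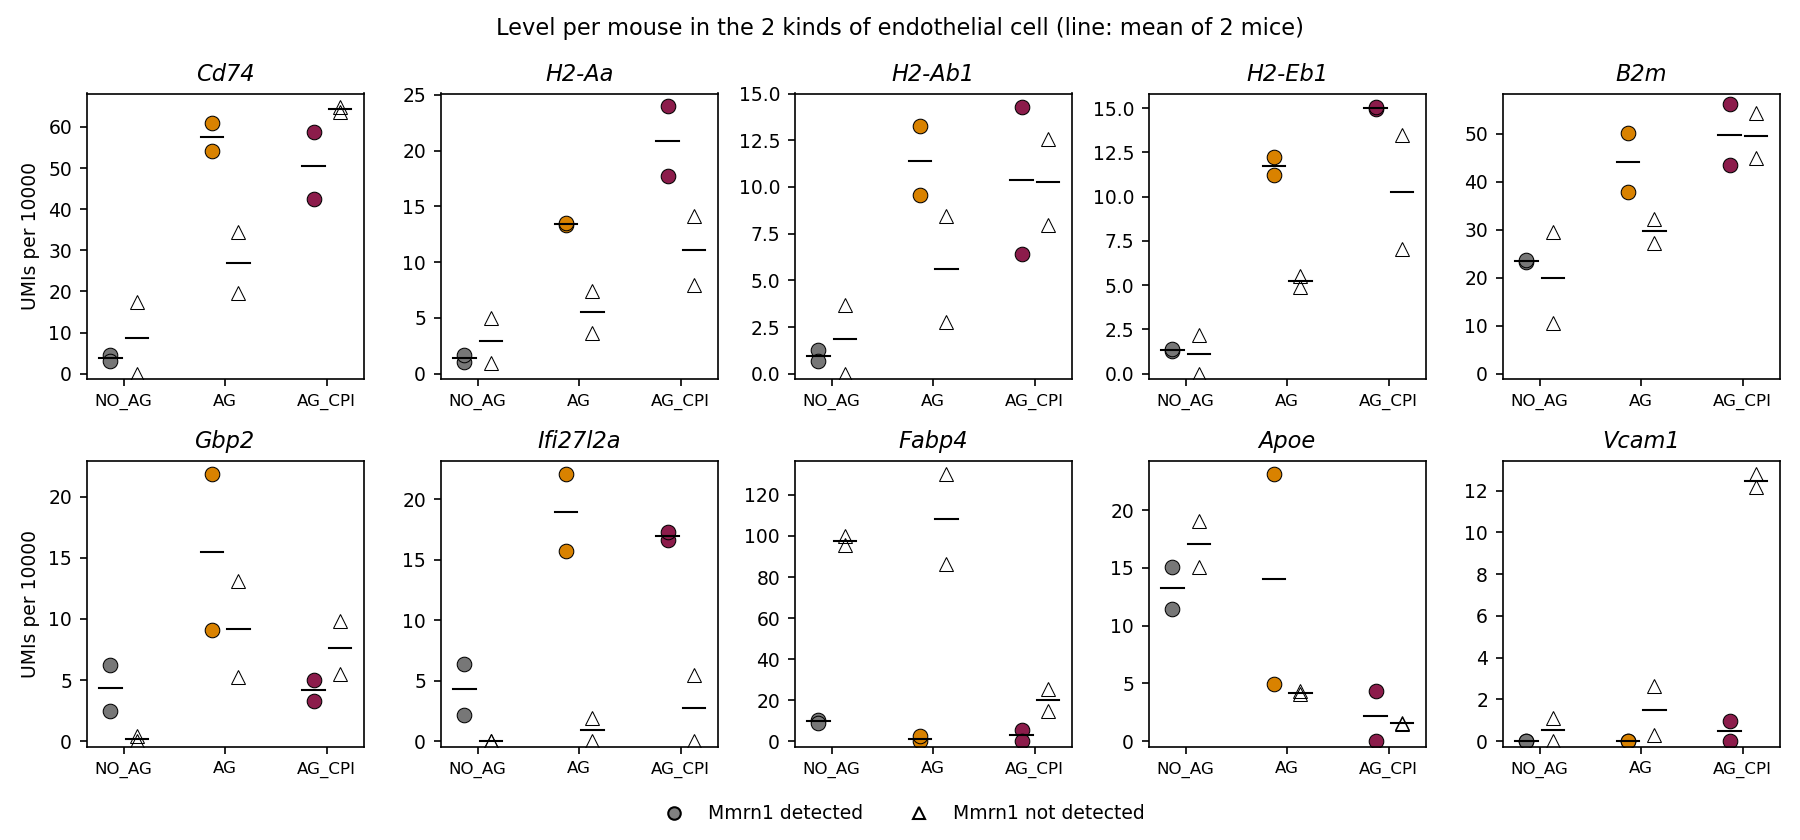
Each panel gives 1 gene as UMIs per 10000 (linear axis). Filled circles are Mmrn1+ cells and open triangles Mmrn1- cells, 1 symbol per mouse, and lines are means of 2 mice. Cd74 and the 3 H2 class II genes sit low in NO_AG and higher in AG and AG_CPI, Ifi27l2a is high among circles, and the Fabp4 triangles of AG_CPI (14.9 and 25.3) lie below those of the other groups.

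Class II transcripts were spread over most cells of the antigen-bearing mice. Cd74 was detected in 13 of 34 and 5 of 10 cells for NO_AG mice, 6 of 7 and 16 of 17 for AG and 6 of 6 and 4 of 4 for AG_CPI. Thinned to 1500 UMIs per cell, the numbers were 11, 3, 6, 16, 6 and 4. As a background, 11 of 85 fibroblasts had a Cd74 UMI, at a median of 4471 UMIs per cell against 2897.5 in endothelial cells. Cells with UMIs of all of Cd74, H2-Aa, H2-Ab1 and H2-Eb1 numbered 2 of 34 and 0 of 10 for NO_AG mice, 5 of 7 and 7 of 17 for AG and 6 of 6 and 4 of 4 for AG_CPI. None of the 34 cells of the AG and AG_CPI mice lacked all 4 genes, whereas 17 of 34 and 3 of 10 cells in NO_AG did.

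Tested alone over 1496 genes, Mmrn1+ cells kept the calls in AG against NO_AG for Cd74 (3.72 on the log2 scale; limma, adjusted p = 0.00044), H2-Eb1 (2.70; 0.0159) and H2-Ab1 (3.005; 0.0392), and H2-Aa was called as well. In Mmrn1- cells alone, over 847 genes, Cd74 was 3.08 higher (limma, adjusted p = 0.139) and only Gbp2 was called. Whether the kinds differed in their response was not tested.

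RNA of other cells was mostly present at low levels and moved partly with the groups. The list of 18 T and NK cell genes includes Thy1, which the Mmrn1+ cells expressed in every mouse. Without Thy1, the other 17 genes summed to 0.366 and 0 UMIs per 10000 for NO_AG mice, 1.18 and 9.08 for AG and 26.6 and 0 for AG_CPI, so AG 2 and AG_CPI 1 stood above the rest, and 5 of the 18, among them Cd4, Trbc1 and Trbc2, were at 0. Of 16 myeloid genes 13 were at 0, and their sum ranged from 0 to 0.204 for NO_AG mice, 0.870 to 2.60 for AG and 0 to 0.886 for AG_CPI. A UMI of 9 T cell or myeloid genes was carried by 2, 0, 1, 6, 1 and 0 endothelial cells in the order of mice used above, and the 6 of AG 2 were all Mmrn1- cells. In AG_CPI 1, 1 of its 4 Mmrn1- cells carried such a UMI. Ccl5 (14 UMIs), Cd8a (5) and Cd3g (4) were each found in 1 Mmrn1- cell of that mouse. These genes were at 0 in its endothelial cells without such a UMI, so its T cell sum came largely from that cell. Whether it was a doublet was not tested. Cd74 was also taken over the endothelial cells without any such UMI. It was at 7.34 and 2.13 UMIs per 10000 for NO_AG mice, 50.4 and 32.3 for AG and 58.7 and 61.8 for AG_CPI. Its difference of AG from NO_AG was then 3.33 (limma, adjusted p = 6.24e-05) and it was the only call, while H2-Eb1 was at 2.01 (0.305), H2-Ab1 at 2.41 (0.109) and Gbp2 at 2.49 (0.0746).

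Sequences upstream of the start of 4 genes that passed a test in at least 1 comparison are shown because class II and interferon-inducible genes are known for short shared elements there. They are the 150 bases before the annotated start, 5′ to 3′ on the gene's strand, from RefSeq (GRCm38.p6). Capitals mark the Y box CTGATTGG, or the interferon element, TTTC and TTTC with any 2 bases between them, which reads GAAACTGAAA on the strand shown for B2m. They lie at chr17:34287824-34287973 (minus strand, H2-Aa), chr17:34305717-34305866 (plus, H2-Eb1), chr3:142620513-142620662 (plus, Gbp2) and chr2:122147537-122147686 (plus, B2m).
H2-Aa: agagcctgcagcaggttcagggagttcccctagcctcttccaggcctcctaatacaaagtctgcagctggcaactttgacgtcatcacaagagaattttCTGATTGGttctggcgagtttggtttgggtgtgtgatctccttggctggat
H2-Eb1: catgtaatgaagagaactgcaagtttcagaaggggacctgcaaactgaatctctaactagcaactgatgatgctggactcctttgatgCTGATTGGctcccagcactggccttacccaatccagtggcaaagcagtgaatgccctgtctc
Gbp2: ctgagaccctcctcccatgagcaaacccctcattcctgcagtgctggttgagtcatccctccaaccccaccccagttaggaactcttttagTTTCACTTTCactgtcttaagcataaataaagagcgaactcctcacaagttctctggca
B2m: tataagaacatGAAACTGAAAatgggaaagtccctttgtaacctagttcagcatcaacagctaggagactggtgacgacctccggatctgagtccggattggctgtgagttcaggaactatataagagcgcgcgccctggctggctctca
The Y box begins 51 bases before the start of H2-Aa and 62 before that of H2-Eb1. The interferon element begins 59 bases before the start of Gbp2 and 139 before that of B2m. On either strand, the Y box was found in 3.16% and the interferon element in 1.59% of 32851 promoters of the same length. Each of these 4 promoters held only 1 of the 2 motifs. A match of letters is not evidence of a bound site. Of the 6 listed class II genes found in the table, H2-Aa and H2-Eb1 held the Y box, and H2-DMa, H2-DMb1, Ctss and Cd80 had no match in this window. The sequences shown are thus those with a match. H2-Ab1 and Cd74 were not matched in the table.

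No class I presentation gene passed in AG against NO_AG, where 0.170% of all genes were called. Of 22 listed genes 20 passed the filter. Both AG mice lay above both NO_AG mice for 10 of the 20, against 13.5% of all genes tested, with a median log2 difference of 0.44 against -0.12 over all genes. H2-K1, a class I heavy chain, was at 25.7 and 42.1 UMIs per 10000 in Mmrn1+ cells of NO_AG, 75.5 and 47.8 for AG and 53.8 and 58.8 for AG_CPI. Mmrn1- cells had 23.8 and 33.4, 45.7 and 44.7, and 54.3 and 55.1. All 4 antigen-bearing mice lay above both NO_AG mice in both kinds. The difference of AG from NO_AG was 0.70 (SE 0.24; limma, adjusted p = 0.996) and that of AG_CPI 0.84 (SE 0.24; adjusted p = 0.219).

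B2m, the light chain that all class I molecules share, was the one class I gene called. It was 1 of 20 tested in AG_CPI against NO_AG, beside 0.339% of all genes called. Both AG_CPI mice lay above both NO_AG mice for 11 of the 20, against 11.5% of all genes. The median log2 difference was 0.64, against -0.16 over all genes. B2m in Mmrn1+ cells was at 23.3 and 23.7 UMIs per 10000 for NO_AG mice, 50.2 and 37.9 for AG and 43.5 and 56.1 for AG_CPI. Mmrn1- cells had 29.6 and 10.5, 27.2 and 32.2, and 54.3 and 44.9. AG_CPI lay above NO_AG in both kinds and overlapped AG only in Mmrn1+ cells. The rise in AG_CPI against NO_AG was 1.24 (SE 0.27; limma, adjusted p = 0.00930). B2m lost its call under 11 of 21 alternatives, among them leaving out NO_AG 2 or AG 1, or the cells with a T cell or myeloid UMI. Without AG_CPI 1 it was 1.25 (limma, adjusted p = 0.00905). In AG against NO_AG B2m was 0.74 higher (SE 0.27; adjusted p = 0.996). Psmb8, a subunit of the immunoproteasome that cuts peptides for class I, was 1.26 higher in AG (SE 0.44; adjusted p = 0.996) and 1.34 in AG_CPI (SE 0.44; adjusted p = 0.456).

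Of the interferon-inducible genes, Gbp2 passed in AG. Gbp2 encodes a guanylate-binding GTPase that acts against intracellular microbes. In Mmrn1+ cells it was at 2.46 and 6.21 UMIs per 10000 for NO_AG mice, 21.8 and 9.05 for AG and 4.99 and 3.33 for AG_CPI. Mmrn1- cells had 0.431 and 0, 13.1 and 5.28, and 9.81 and 5.48. AG lay above NO_AG in both kinds, while AG_CPI did so only in Mmrn1- cells. The rise in AG was 2.67 on the log2 scale (SE 0.53; limma, adjusted p = 0.00667). AG_CPI was 1.79 above NO_AG (SE 0.53; adjusted p = 0.243) and did not pass. The call in AG was lost under 8 of 21 alternatives, among them leaving out NO_AG 1 (2.60; limma, adjusted p = 0.145) or AG 1 (2.06; 0.999).

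Of 48 interferon response genes, which include Psmb8, Psmb9 and Tap1 of the class I list, 43 were found and 29 passed the filter. In AG against NO_AG 1 rose and none fell, beside 0.170% of all genes called. Both AG mice lay above both NO_AG mice for 16 of 29, against 13.5% of all genes, and the median was 0.78 against -0.12. In AG_CPI against NO_AG none was called, beside 0.339% of all genes. Both mice lay above for 10 of 29, against 11.5% of all genes, and the median was 0.52 against -0.16. Isg15, a ubiquitin-like protein, was at 2.17 and 0.370 UMIs per 10000 in Mmrn1+ cells of NO_AG, 7.87 and 4.07 for AG and 6.83 and 0 for AG_CPI, and its AG difference of 2.64 (SE 0.69) had a limma adjusted p of 0.140. The AG_CPI mice were apart from each other in Mmrn1- cells too, at 5.37 and 0.913 UMIs per 10000. Gbp4 was 1.60 higher in AG (SE 0.53; adjusted p = 0.861).

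Ifi27l2a was detected in 24 of 47 Mmrn1+ and 7 of 31 Mmrn1- cells. Its levels in Mmrn1+ cells were 2.15 and 6.41 UMIs per 10000 for NO_AG mice, 22.1 and 15.8 for AG and 16.6 and 17.3 for AG_CPI. Among Mmrn1- cells it had 0 UMIs in 4 of the 6 mice and 1.92 and 5.49 UMIs per 10000 in AG 2 and AG_CPI 1. All antigen-bearing mice lay above NO_AG in Mmrn1+ cells. Over both kinds the difference was 1.63 in AG (SE 0.60; limma, adjusted p = 0.996) and 1.92 in AG_CPI (SE 0.60; adjusted p = 0.344). Both reversed where only cells with more Plvap and Vwf were tested.

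Fabp4, Apoe and Fth1 fell in AG_CPI against NO_AG. Fabp4, which carries fatty acids in capillary endothelium, was at 99.8 and 95.5 UMIs per 10000 in Mmrn1- cells of NO_AG, 86.1 and 130.0 for AG and 14.9 and 25.3 for AG_CPI. Mmrn1+ cells had 10.5 and 9.03, 0 and 2.36, and 5.66 and 0. In Mmrn1- cells both AG_CPI mice were far below the other 4, and in Mmrn1+ cells both antigen-bearing groups were below NO_AG. Of the 8 Mmrn1- cells with Gja4, 7 had no Fabp4, and such cells were 3 of 6 in AG_CPI. Among Mmrn1- cells without Gja4, Fabp4 was at 149.7 and 95.5 for NO_AG mice, 213 (1 cell) and 141 for AG and 29.9 and 50.6 (1 cell) for AG_CPI, and the AG_CPI mice were still the lowest. The log2 difference was -2.44 (SE 0.43; limma, adjusted p = 0.000305). AG against NO_AG gave -1.55 (SE 0.43; adjusted p = 0.246), with 0.04 in Mmrn1- cells alone, and was called when AG 2 (-2.33; limma, adjusted p = 0.0282), AG_CPI 1 (0.00795) or AG_CPI 2 (0.00307) was left out. Of 15 listed genes of lipid and solute transport 8 passed the filter. Fabp4 was the only one called, in AG_CPI against NO_AG, beside 0.339% of all genes there. The AG_CPI call against NO_AG was lost under 5 of 21 alternatives, among them leaving out NO_AG 1 (-2.37; limma, adjusted p = 0.149). Without AG_CPI 1 the difference was -3.18 (limma, adjusted p = 1.7e-08), resting on the single AG_CPI mouse left.

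Apoe, a lipid carrier protein, was at 15.1 and 19.0 UMIs per 10000 in Mmrn1- cells of NO_AG, 4.06 and 4.32 for AG and 1.49 and 1.58 for AG_CPI. Mmrn1+ cells had 11.5 and 15.1, 23.1 and 4.98, and 4.32 and 0. The groups did not overlap in Mmrn1- cells, and AG 1 was the highest of all in Mmrn1+ cells. None of the 8 Mmrn1- cells with Gja4 had Apoe, and those without it had 22.6 and 19.0 for NO_AG mice, 12.2 (1 cell) and 4.68 for AG and 2.97 and 3.16 (1 cell) for AG_CPI. The difference of AG_CPI was -3.14 from NO_AG (SE 0.52; limma, adjusted p = 0.000124) and -2.00 from AG (SE 0.52; adjusted p = 0.387). Without AG_CPI 1 the differences were -3.95 (limma, adjusted p = 1.7e-08) and -2.82 (adjusted p = 0.00104), both resting on the single AG_CPI mouse left. Keratinocytes of the same libraries held more Apoe, at 61.5 and 51.2 UMIs per 10000 for NO_AG mice, 60.9 and 33.1 for AG and 33.7 and 41.3 for AG_CPI. The summed level of 18 keratinocyte genes in endothelial cells was 4.95 and 18.9, 5.09 and 7.53, and 2.15 and 1.66, lowest in AG_CPI, with Krt1, Krt6a and Dsg3 at 0. Its part in the Apoe result was not tested.

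Fth1, the heavy chain of the iron store ferritin, was the only gene called between AG_CPI and AG. In Mmrn1+ cells it was at 182 and 142 UMIs per 10000 for NO_AG mice, 182 and 252 for AG and 103 and 139.7 for AG_CPI. Mmrn1- cells had 78.5 and 67.9, 108 and 61.3, and 24.4 and 47.4. Both AG_CPI mice lay below the other 4 in both kinds. The difference was -0.99 from AG (SE 0.18; limma, adjusted p = 0.00293) and -0.77 from NO_AG (SE 0.18; adjusted p = 0.0255). The first call was lost under 12 of 21 alternatives, among them leaving out NO_AG 1 (adjusted p = 0.214), AG 1 (1.00) or AG 2 (0.0699) in the limma fit. Without AG_CPI 1 it was -0.66 (adjusted p = 0.0431). Among Mmrn1- cells without Gja4, Fth1 was at 82.7 and 67.9 for NO_AG mice, 244 (1 cell) and 63.7 for AG and 16.1 and 60.03 (1 cell) for AG_CPI. The call against NO_AG was lost under 16 of 21, among them leaving out any mouse but AG_CPI 2, or the cells with a T cell or myeloid UMI.

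No other gene passed in AG_CPI against AG. Fabp4 differed by -0.89 (SE 0.43; limma, adjusted p = 0.910), and was the only gene called there in each of 3 alternatives, which used Mmrn1- cells alone (-2.33; limma, adjusted p = 0.00299), blood cells by Plvap and Vwf (-2.51; 0.0280) or all endothelial cells without balance (-2.23; 0.0333). The nearest higher genes were Adamts1, a matrix protease (2.32; limma, adjusted p = 0.564), Vim, an intermediate filament (0.73; 0.910), and Klf2, a transcription factor that responds to blood flow (1.55; 0.910). The nearest lower ones after Fth1 were Apoe and Igfbp7 (-2.17; limma, adjusted p = 0.564). Igfbp7 is a secreted vessel wall protein. Among genes lower in both AG mice than in both NO_AG mice, and leaving out the 7 genes that chose the cells, the nearest after Fabp4 were Igfbp5 (-2.13; limma, adjusted p = 0.861) and Wdr33, for which no test is given because it passed the filter on low values only through the NO_AG mice. None of these was called. Over all genes, both AG mice lay below both NO_AG mice for 21.4%, and both AG_CPI mice below NO_AG for 23.1%. The summed level of 20 genes known to rise during tissue dissociation was 66.4 and 51.0 UMIs per 10000 for NO_AG mice, 56.7 and 23.9 for AG and 33.0 and 33.3 for AG_CPI, and its part in the AG_CPI differences was not tested.

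Leukocyte adhesion genes showed no call in any comparison, with 12 of 18 passing the filter. Over all genes, 0.170% were called in AG against NO_AG, 0.0424% in AG_CPI against AG and 0.339% in AG_CPI against NO_AG. At such shares, no call among 12 genes says little about the list. Vcam1, which binds the integrin of activated T cells, was high in AG_CPI. In Mmrn1- cells it was at 1.09 and 0 UMIs per 10000 for NO_AG mice, 2.65 and 0.300 for AG and 12.2 and 12.8 for AG_CPI, and it had 1 UMI in all Mmrn1+ cells. The AG_CPI mice stood above the other 4, on 39 and 14 UMIs. These came mostly from 1 cell in each mouse, which held 31 of the 39 and all 14, and both cells carried Gja4. Among Mmrn1- cells without Gja4, Vcam1 was at 3.72 and 0 in the AG_CPI mice. No test is given for Vcam1, since it passed the filter on low values only through the AG_CPI mice. Selp in Mmrn1- cells ran from 0.271 to 10.5 UMIs per 10000 with groups overlapping, Sele had 5 UMIs in 5 cells, and Madcam1 had 0 UMIs.

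The endothelial cells held few chemokine transcripts apart from Ccl21a. Of 18 chemokine genes found in the data, 11 had 0 UMIs in the 78 cells, including Cxcl9, Ccl2 and Cxcl1. Cxcl10 had 1 UMI, in NO_AG 1. Cxcl9, an interferon-inducible ligand that draws T cells, was at 0.194 and 0.486 UMIs per 10000 in keratinocytes of NO_AG, 3.77 and 4.21 for AG and 3.84 and 2.71 for AG_CPI. Ccl21a in Mmrn1+ cells was at 51.4 and 44.1 UMIs per 10000 for NO_AG mice, 30.1 and 127 for AG and 0 and 128 for AG_CPI, so the groups overlapped, and the mice of AG and of AG_CPI were far apart.

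Among ligands of inhibitory receptors, Cd274 (PD-L1) was detected in 12 of the 78 cells. Its levels over all endothelial cells were 0.702 and 0 UMIs per 10000 for NO_AG mice, 1.34 and 0.188 for AG and 0.968 and 0.555 for AG_CPI, and the groups overlapped. The fitted difference was 0.42 in AG (SE 0.67) and 0.68 in AG_CPI (SE 0.67), neither called by limma. Pdcd1lg2 (PD-L2) had 1 UMI. Nectin2, a ligand of the receptor TIGIT, was found in 23 of 47 Mmrn1+ cells and 1 of 31 Mmrn1- cells.

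The remaining lists gave no call in any of the 3 comparisons by limma, Fabp4 aside. Over all genes 0.339% or fewer were called, so this says little about the lists. Of the angiogenesis list 11 of 23 genes passed the filter, of tone and clotting 14 of 22, of junction and barrier 9 of 16, of death receptors 2 of 14 and of NF-kB targets 4 of 20. Nos3, the nitric oxide synthase of endothelium, was -0.55 in AG (SE 0.68) and 0.64 in AG_CPI (SE 0.68) against NO_AG. The lymphatic genes Prox1 and Reln were -1.32 (SE 0.68) and -1.33 (SE 0.69) in AG, and Flt4 was at 0.18 (SE 0.64). The 15 proliferation genes all had a UMI in the 78 cells, Mki67 only 1, and Hmgb2 alone passed the filter. In Mmrn1+ cells their summed level was 1.54 and 2.63 UMIs per 10000 for NO_AG mice, 1.92 and 0.634 for AG and 17.9 and 1.77 for AG_CPI. AG_CPI 1 stood apart from the other 5 mice, with UMIs of 14 of the 15 genes, each in 1 of its 2 Mmrn1+ cells, at a level near that of its keratinocytes (18.6). In Mmrn1- cells the sums ran from 0.628 to 2.72 over the 6 mice.

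**Figure D4:**
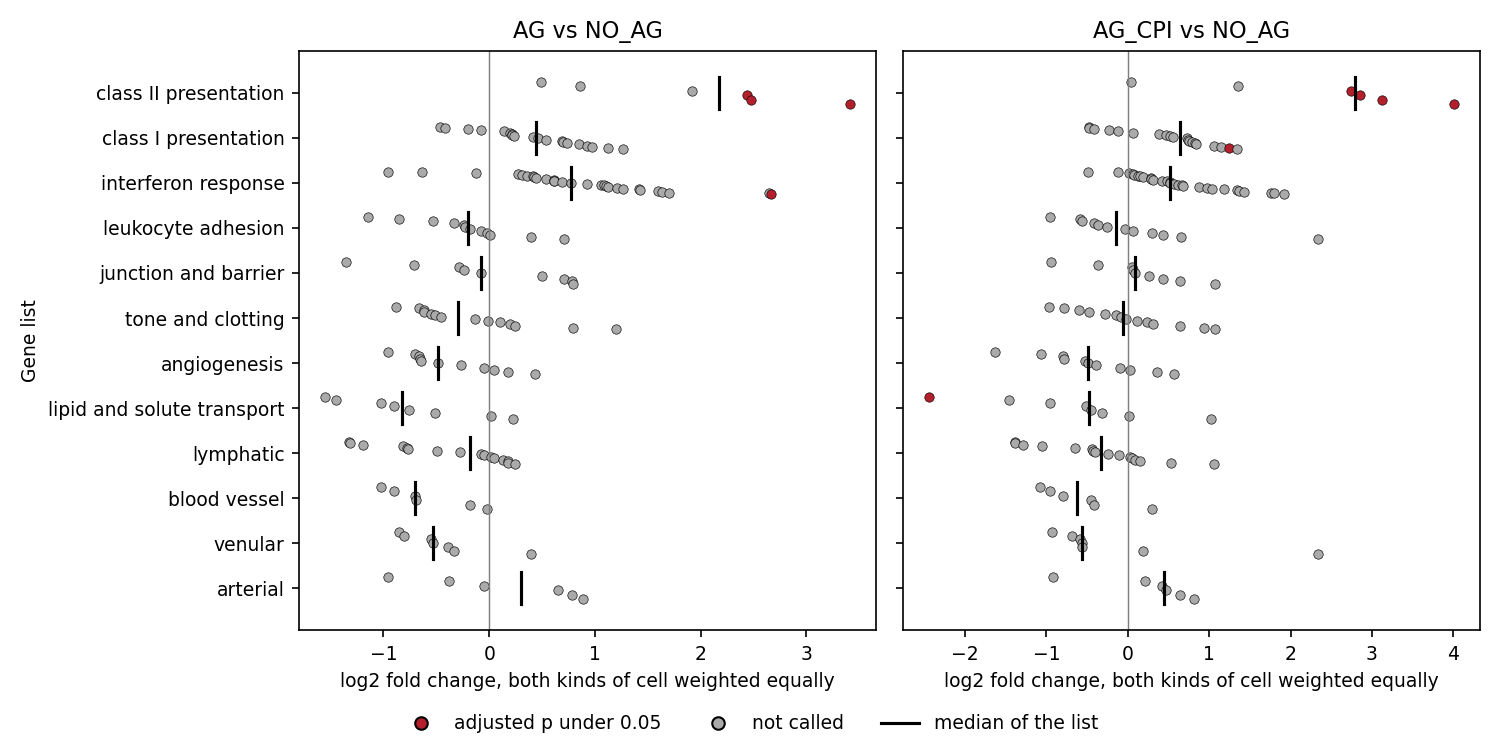
Points are genes that passed the filter, placed by their log2 difference of AG from NO_AG (left) and AG_CPI from NO_AG (right), and black bars are medians of each list. Red points passed at an adjusted p under 0.05. The class II medians (2.18 and 2.80) lie to the right of those of the other lists. In the AG_CPI panel, Fabp4 is the red point below 0.

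The class II levels were set beside those of fibroblasts and keratinocytes, chosen from the same libraries by their collagens or keratins. Cd74 in 85 fibroblasts was at 0.395 and 0.0629 UMIs per 10000 in NO_AG and 0.113 and 1.57 in AG. In 8078 keratinocytes it was at 2.83 and 3.84 for NO_AG mice, 5.21 and 14.4 for AG and 6.44 and 8.66 for AG_CPI. Cells with Ptprc, which include professional antigen-presenting cells, held 80.5 and 59.3, 48.9 and 78.0, and 59.7 and 49.5. Over all endothelial cells Cd74 was at 49.7 and 27.7 for AG and at 56.6 and 61.8 for AG_CPI, above every fibroblast and keratinocyte value (plot of 5 genes by cell type). AG 2 lay below all Ptprc values and the other 3 mice within their range.

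No gene passed the test of whether its change differed between endothelial and other cells. The within-mouse difference of endothelial cells from fibroblasts gave 0 of 4491 genes called in AG against NO_AG (0% by limma, 242 genes at an unadjusted p under 0.05). Cd74 changed by 2.75 more in endothelial cells (SE 0.87; limma, adjusted p = 0.665) and H2-Eb1 by 2.35 more (SE 0.70; adjusted p = 0.608). Against keratinocytes it was 0 of 12569 genes in AG against NO_AG (0%, 674 genes at an unadjusted p under 0.05) and in AG_CPI against AG (0%, 765 genes). There Cd74 differed by 2.14 (SE 1.33; limma, adjusted p = 1.00). The difference for B2m was 0.05 (SE 0.23). Fibroblasts of AG_CPI numbered 1 and 3 and were not tested.

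**Figure D5:**
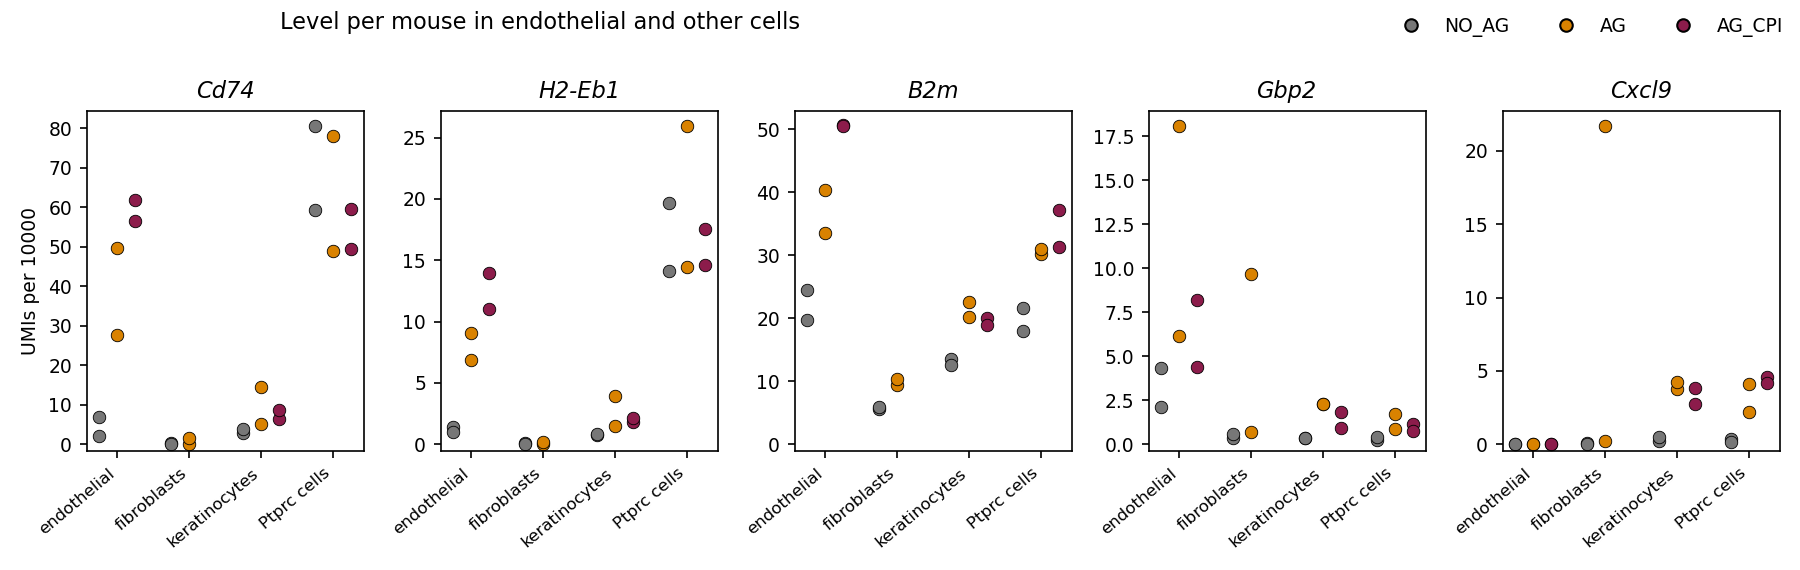
Each point is the mean of 1 mouse, in UMIs per 10000 (linear axes that differ between panels), for endothelial cells, fibroblasts, keratinocytes and cells with Ptprc. Fibroblasts of AG_CPI are left out, since those mice had 1 and 3. Cd74 and H2-Eb1 are higher in the AG than in the NO_AG points of endothelial cells and near 0 in fibroblasts, and Cxcl9 sits at 0 in endothelial cells of every mouse.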

How the data were processed

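Single-cell RNA was measured in skin of 6 mice, 2 per group, with a 5' kit, per the labels' protocols. Reads were processed with Cell Ranger 3.1 and mm10, per the submitters' processing notes. The deposited values are log10 of 1 plus UMIs per 10000 UMIs of a cell. That unit was inferred from the numbers, which gave whole UMIs, to within 0.02 of a UMI (in proportion above 100 UMIs), for 100% of values in each library, against 65.7% to 68.3% if read as natural logs. Of 16158 gene columns 8 repeated a symbol and were summed.

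The members, lists and tests were chosen with earlier results of these data known. No doublet caller was run. The planned test needed 10 endothelial cells in each library, which 3 libraries did not reach, so a fit without that minimum, with Mmrn1+ and Mmrn1- cells weighted equally, was chosen after seeing the data. The planned test of the lymphatic share had the same minimum and was run on all 6 mice instead. Values per mouse and kind were brought to a common scale by trimmed means of log ratios (TMM, trimming 30% and 5%), converted to log2 with 0.5 added, and tested with limma 3.58.1 in R 4.3.3 (Python 3.11.15, numpy 2.4.6, scipy 1.17.1). Called genes had a Benjamini-Hochberg adjusted p under 0.05. Genes with under 5 UMIs in all but 1 library were left out. Named are up to 10 called genes per direction whose groups do not overlap, otherwise the 3 of smallest p, without the 7 genes that chose the cells, receptor segments and sex-linked, mitochondrial and ribosomal protein genes, beside examples of the lists. The test was run on simulated data (5 draws of 2359 genes for AG against NO_AG), in which 3.32% of calls were false. Those data held no variation between single cells, so the rate need not hold for the real ones. Total deposited UMIs were 5650384 to 23845530 per library, and intervals cover counting error only.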

Additional observations from a re-analysis of the deposited data

How the results depend on the processing

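Cd74 in AG against NO_AG kept its direction under all 21 alternatives (1.97 to 4.84 on the log2 scale, adjusted p from 9.06e-12 to 0.907) and lost its call under 4. The number of called genes was 4 in AG against NO_AG, 1 in AG_CPI against AG and 8 in AG_CPI against NO_AG. Without a filter on low values it was 0, 0 and 0, where 10467 genes were tested. Thinning to 1500 UMIs gave 1, 0 and 5 over 940 genes. With blood cells by Plvap and Vwf only, it was 0 in the first and 1 in the last. Mmrn1- cells alone gave 1 in the first, and Mmrn1+ cells alone 0 and 3 in the others. In AG against NO_AG, weights by number of cells gave 10, and leaving out cells with a T cell or myeloid UMI gave 1. Leaving out the same cells gave 6 in AG_CPI against NO_AG, without B2m and Fth1. In AG_CPI against AG, summed UMIs and a rule of at least 4 of the 7 genes gave 0 each. Leaving out 1 mouse at a time gave 0 to 8, 0 to 6 and 5 to 16 genes. The 0 came without AG 1 in the first comparison, and without NO_AG 1, AG 1 or AG 2 in the second, and the most came without AG_CPI 1 (8, 6 and 16), with 4, 1 and 7 of the called genes among them (8, 3 and 13 without AG_CPI 2). The cause was not tested. The difference from fibroblasts went from 0 to between 0 and 2 genes when 1 mouse was left out.

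The replicate block, with the replicate number as a term, gave 4, 0 and 6 genes. The numbers share no origin in the labels, and deviations of same-numbered mice correlated at -0.00613, -0.0164 and 0.0153 over genes.

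Reversals were as follows. Fabp4 in AG against NO_AG turned to 0.75 in blood cells by Plvap and Vwf, 0.93 in all endothelial cells without balance and 0.037 in Mmrn1- cells, and in AG_CPI against AG to 0.53 in Mmrn1+ cells. Ifi27l2a turned to -0.88 in AG and -0.31 in AG_CPI in blood cells by Plvap and Vwf. Gbp2 in AG_CPI against NO_AG turned to -0.0107 in Mmrn1+ cells, and Isg15, leaving out 1 mouse at a time, ran from -0.064 without AG_CPI 1 to 2.93 without AG_CPI 2 (adjusted p = 0.00963). The endothelial share per 100 fibroblasts was higher by 32.6 in AG than NO_AG, 259.8 in AG_CPI than AG and 292 in AG_CPI than NO_AG. Of cells without Ptprc it was 0.432 and 0.296 percentage points higher in AG_CPI than in AG and NO_AG. With 1 mouse left out, the 3 differences in share ran from -0.402 to 0.0380, from -0.101 to 0.0636, and from -0.420 to 0.0192. The lymphatic share of AG_CPI minus AG turned to -3.43 without undecided cells and -10.0 with at least 4 genes, and ran from -16.5 to 16.8 with 1 mouse left out. The planned fits with 10 cells per library, and fibroblasts in AG_CPI against AG, could not be run.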
